A study of Rattus norvegicus with 6 samples.

Results

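The endothelin system was followed in aortae of spontaneously hypertensive (SHR) rats, which become hypertensive with age without surgery or drugs, through Edn1, Edn3, Ednra, Ednrb and Ece1. Its members were all probe sets to which the platform annotation gave one of these symbols and no other. That rule found 5 probe sets of 3 genes, 2 for Ece1, 1 for Edn1 and 2 for Edn3, among 7006 probe sets of 4736 genes named in this way. It found 0 for the receptors Ednra and Ednrb, so the receptors were not analysed here. Animals of the runner group had a running wheel for 5 weeks, and animals of the non-runner group did not run. All animals were of the hypertensive strain, so no normotensive rat enters the comparison. Each of 6 arrays carried total RNA pooled from 3 aortae, with 3 arrays per group, named A, B and C. The labels used here give no age or sex.

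Endothelins are short vasoactive peptides that are cut from large precursors. Edn1 encodes the precursor of endothelin-1, which endothelial cells release toward the smooth muscle of the vessel and which is a strong constrictor. Edn3 encodes the precursor of endothelin-3, known for its role in neural crest and enteric nerve development. Proprotein convertases first free an inactive intermediate, big endothelin, and Ece1, a membrane metalloprotease, cleaves that intermediate to the active peptide. The peptides act on G protein-coupled receptors that raise calcium in smooth muscle and, in endothelium, drive release of nitric oxide and prostacyclin.

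Values are intensities on a linear scale, 1 per probe set and array, so no read depth applies, and precision is limited by how many arrays were run. Array medians ran from 28.5 to 32.2. The chip also holds 19 control probe sets that read yeast genes or the sense strand, and the 95th percentile of their intensities, 40.8, served as a control level, below which a value is not established as signal. Non-runner B had the highest 3'/5' intensity ratio of beta-actin, 2.14 against 1.22 to 1.67 on the other arrays, a ratio that grows as signal from the 5' end of transcripts is lost. That of GAPDH was higher on each non-runner array, at 1.223, 1.954 and 1.391, than on any runner array, at 1.183, 1.222 and 1.113 (two-sided exact permutation p = 0.1, the smallest possible), with non-runner A and runner B almost equal. The part of the GAPDH ratio in the differences below was not tested. How animals were divided among the pools is not stated, so p-values rest on the spread from pool to pool, part of which may be technical.

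Ece1 was the only member with signal above the control level on every array. In its brighter probe set, D29683_at, the intensity was 412.6, 383.4 and 387.5 on non-runner arrays A, B and C. On runner arrays A, B and C it was 305.1, 325.2 and 308.3. Every runner array lay below every non-runner array. The non-runner mean was 394.5 ± 15.8 and the runner mean 312.9 ± 10.8 (SD, n = 3), a ratio of 0.793. On the log2 scale the difference was -0.34 ± 0.14 (SE), with a 95% interval from -0.66 to -0.03. It did not pass limma when adjusted over the chip (unadjusted p = 0.0366, Benjamini-Hochberg adjusted p = 0.587), and its p ranked 325 of 5244.

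The spread of this probe set within groups was small. Its residual SD was 0.06 on the log2 scale, against a median of 0.23 over all tested probe sets, and 1.47% of them had a smaller one. Limma's SE draws such values toward the common spread, so the test rests on more than the 6 intensities. An exact permutation test of the intensities gave p = 0.1 (two-sided), the smallest that 3 arrays against 3 allow. The unadjusted p was 0.0857 with the array letter as a block and 0.027 to 0.107 as each array was left out.

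The second Ece1 probe set did not show the same difference. This probe set, rc_AA956930_s_at, measured 78.0, 49.8 and 61.3 on the non-runner arrays. On the runner arrays it measured 73.8, 60.7 and 78.3. The groups overlapped, with the lowest value on non-runner B and the highest on runner C. The non-runner mean was 63.0 ± 14.2 and the runner mean 70.9 ± 9.1 (SD, n = 3). The log2 difference was 0.16 ± 0.20 (SE), with a 95% interval from -0.29 to 0.61 (limma adjusted p = 0.848).

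A comparison of the Ece1 probe sets on each array was chosen after these values were seen. The log2 level of D29683_at minus that of rc_AA956930_s_at was 2.39, 2.88 and 2.57 on the non-runner arrays and 1.95, 2.38 and 2.01 on the runner arrays. The groups did not overlap, by the narrow gap between non-runner A and runner B, and the change was -0.50 (exact permutation p = 0.1, the smallest possible). Without quantile normalization the groups overlapped at those 2 arrays, at a change of -0.51 (exact permutation p = 0.2). With the log2 values of both probe sets averaged, Ece1 differed by -0.09 ± 0.14 (SE, limma adjusted p = 0.881). Which part of the transcript each probe set reads was not analysed here.

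**Figure D1:**
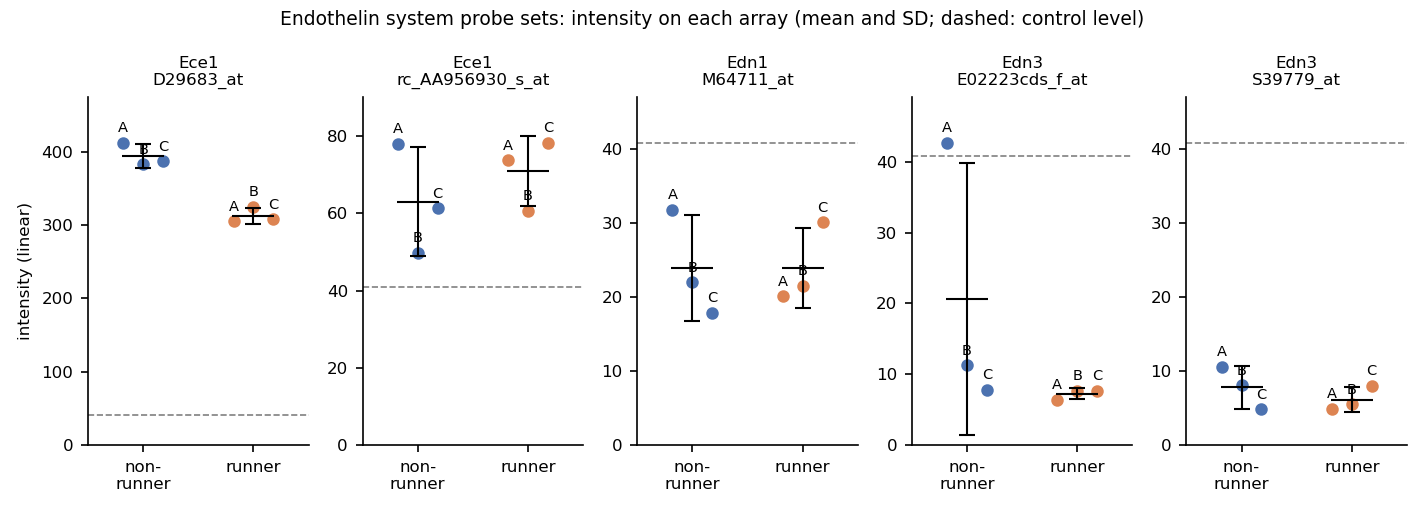
Intensity (linear, from 0) of the 5 endothelin system probe sets on each array; blue points are non-runner and orange points runner arrays A, B and C, black bars the mean and SD of 3 arrays, and the dashed line the control level of 40.8. In D29683_at of Ece1 the runner arrays (305.1 to 325.2) lie below the non-runner arrays (383.4 to 412.6), while the Edn1 and Edn3 probe sets lie below the control level on all arrays but non-runner A of E02223cds_f_at.

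The endothelin-1 precursor was dim. Edn1 was read by M64711_at, which measured 31.8, 22.0 and 17.9 on non-runner arrays A, B and C. On the runner arrays it measured 20.1, 21.5 and 30.1. All 6 values lay below the control level of 40.8, and the groups overlapped almost fully, with non-runner A and runner C the highest and non-runner C the lowest. Both means were 23.9, with SDs of 7.1 in non-runners and 5.4 in runners (n = 3). The fitted log2 difference in intensity was -0.03 ± 0.21 (SE), with a 95% interval from -0.52 to 0.45 (limma adjusted p = 0.976). Its sign turned to 0.02 without quantile normalization. Neither group was established as signal, so this difference is one of intensities and is not read as a fold of the transcript.

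The endothelin-3 precursor was dimmer still, and both of its probe sets fell among the dimmest 40% that were left out of the test. In E02223cds_f_at the intensity was 42.7 on non-runner A, 11.3 on non-runner B and 7.8 on non-runner C. On the runner arrays it was 6.4, 7.7 and 7.7. Non-runner A stood far above the other arrays and was the only one above the control level, by a narrow margin. The groups did not overlap, but non-runner C and runners B and C differed by only 0.1 in intensity, less than the spread among runners (SD 0.75). The other Edn3 probe set, S39779_at, measured 10.6, 8.1 and 4.8 in non-runners and 4.9, 5.5 and 8.0 in runners, and its groups overlapped. With the dim probe sets included, limma's adjusted p was 0.741 for E02223cds_f_at and 0.817 for S39779_at. Non-runner A was the highest array in both Edn3 probe sets, in Edn1 and in D29683_at of Ece1.

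**Figure D2:**
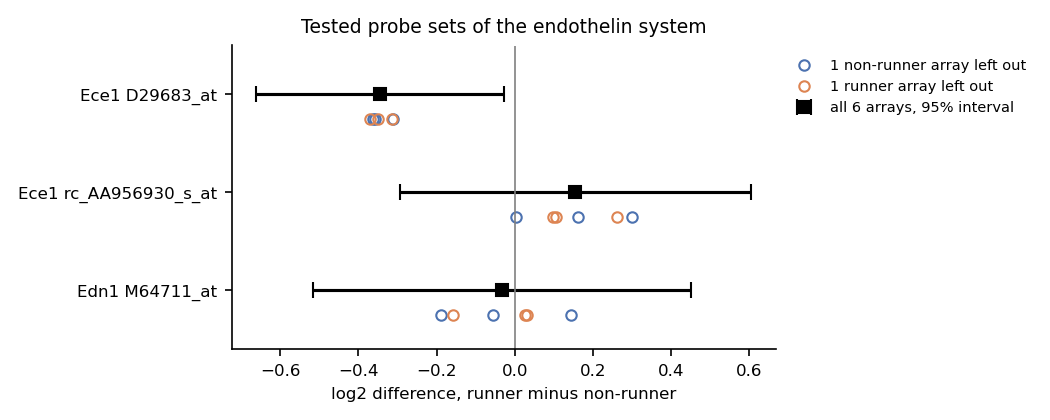
Log2 difference, runner minus non-runner, for the 3 tested probe sets; black squares with bars are the fit to all 6 arrays with its 95% interval, and open circles the fits with 1 non-runner (blue) or 1 runner (orange) array left out. D29683_at of Ece1 stays between -0.37 and -0.31, rc_AA956930_s_at of Ece1 between 0.00 and 0.30, and Edn1 falls on both sides of 0.

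Of the 3 tested member probe sets, 0 passed limma at an adjusted p under 0.05, and 0 of 5244 did over the whole chip, or 0.0%. At an unadjusted p under 0.05, 1 of the 3 was called, D29683_at, beside 423 of 5244 in all, 8.07%. In the same direction, lower in runners, the share over the chip was 4.23%. The groups did not overlap in 1 of the 3, beside 14.9% of all tested probe sets of which 7.49% in the lower and 7.36% in the higher direction. With 3 probe sets of 2 genes these counts do not set the members apart from the chip.

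Genes around the peptides and Ece1 were taken from 6 lists covering processing, receptor signalling and control. These held 103 symbols, a few of them older names of other listed genes, and 65 genes were tested by their brightest probe set. Of the 65, 28 were higher and 37 lower in runners, and 0 passed limma at an adjusted p under 0.05. At an unadjusted p under 0.05, 1 was higher and 5 lower, 9.23% beside 8.07% of the chip. Groups did not overlap for 9 of the 65, 13.8% beside 14.9%. The median log2 difference was -0.04, beside -0.01 over all tested probe sets.

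Among genes of endothelin processing and clearance, 4 of 8 tested were higher and 4 lower, with a median of -0.01. This balance was not steady, as 7 of the 8 were lower without non-runner C. Mme, neprilysin, a peptidase that degrades endothelins, measured 23.7, 21.0 and 21.7 in non-runners and 18.6, 18.8 and 19.2 in runners. Its groups did not overlap, but all 6 values lay below the control level (limma adjusted p = 0.675). Cma1, a mast cell chymase that can also cut big endothelin, measured 61.9 ± 4.1 and 55.9 ± 9.0 (SD, n = 3), with a log2 difference of -0.18 ± 0.16 (SE). Pcsk6, a proprotein convertase, measured 119.6 ± 21.0 and 104.4 ± 5.6, and its 2 tested probe sets differed in sign. Edn2, the precursor of the remaining endothelin, was too dim to be tested and ran from 2.9 to 15.0, below the control level on every array.

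In the list of receptor coupling to phospholipase C and calcium release, 11 of 12 tested genes were lower in runners, with a median of -0.13. That lean depended on non-runner B: without it 7 were lower and 5 higher, and 6 of each once the beta-actin 3'/5' ratio was a covariate. Itpr3, a receptor for inositol trisphosphate that releases stored calcium, measured 184.1, 212.5 and 188.4 in non-runners. In runners it measured 130.4, 135.4 and 146.9, each below every non-runner array. The log2 difference was -0.49 ± 0.14 (SE, limma unadjusted p = 0.00876, adjusted p = 0.484). Another Itpr3 probe set, L06096_at, differed by 0.08 ± 0.22 (SE), so the gene's probe sets did not show the same change.

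Trpc1, a calcium-permeable channel subunit, measured 171.5, 151.2 and 119.6 in non-runners and 87.3, 110.5 and 108.0 in runners. The groups did not overlap, non-runner C being nearest to the runners, and both tested probe sets were lower in runners. Its log2 difference was -0.52 ± 0.18 (SE, limma adjusted p = 0.577). Plcb2, a phospholipase C that G proteins activate, measured 28.7, 23.6 and 23.2 and then 12.8, 22.6 and 15.4, below the control level on all 6 arrays (limma adjusted p = 0.577). Of these 3 genes, 0 passed the test. The differences without non-runner B were -0.44 for Itpr3 and -0.50 for Trpc1.

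Among the kinase arms, which sensitize the contractile apparatus to calcium and carry growth signals, 5 of 14 tested genes were higher and 9 lower, with a median of -0.05. Without runner B, 8 were higher and 6 lower. Map2k1, a MAP kinase kinase, measured 194.9 ± 19.9 and 222.7 ± 3.8 (SD, n = 3), with 2 of its 3 tested probe sets higher. Pla2g4a, the phospholipase that frees arachidonic acid, measured 212.6 ± 32.7 and 182.1 ± 7.3.

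Receptor desensitization genes had a median log2 difference of 0.03 by their brightest probe sets, with 6 of 7 higher, but 2 higher and 5 lower when arrays were centred on their medians. Grk6, a G protein-coupled receptor kinase, averaged 199.5 ± 17.6 without running and 206.8 ± 27.5 with it (SD, n = 3). Its dimmer probe set, Y09365cds_s_at, measured 30.0, 29.7 and 24.4 in non-runners, all below the control level. In runners it measured 42.3, 40.7 and 43.6, with 2 of 3 arrays just above that level. The groups did not overlap, at a log2 difference in intensity of 0.52 (limma adjusted p = 0.442). As the non-runner group was not established as signal, this difference is not read as a fold of the transcript. Grk3, another such kinase, measured 24.8 ± 7.7 and 33.5 ± 8.2, below the control level on every array. Grk5, of the same family, measured 41.1 ± 8.0 and 38.6 ± 5.1, close to that level.

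Known regulators of Edn1 transcription also moved little. Of 15 tested, 10 were higher and 5 lower, with a median of 0.07, and 0 reached an unadjusted p under 0.05. Gata6, a GATA factor of smooth muscle, averaged 224.1 ± 31.2 without running and 263.7 ± 19.9 with it (SD, n = 3), a log2 difference of 0.22 ± 0.16 (SE). Nfkb1, an NF-kappa-B subunit, measured 209.2 ± 40.2 and 170.3 ± 18.1, a difference of -0.29 ± 0.19. Smad2, which relays TGF-beta signals, measured 121.9 ± 26.7 and 102.0 ± 11.5, a difference of -0.24 ± 0.19. In each of the 3 the groups overlapped.

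Of 9 tested genes that couple the endothelial receptor to nitric oxide and prostacyclin, 7 were lower, with a median of -0.18. Without non-runner B, 5 were lower and 4 higher, at a median of -0.01, and once the beta-actin ratio was a covariate 4 and 5, at 0.02. Nos3, the endothelial nitric oxide synthase, measured 103.1, 69.1 and 91.4 in non-runners and 66.8, 69.6 and 50.0 in runners (limma adjusted p = 0.595). The groups overlapped at non-runner B and runner B. Of its other tested probe sets, AF110508_at was higher on each runner array, at 61.4, 40.6 and 47.6 against 62.5, 61.9 and 75.3, a log2 difference of 0.40. The other 3 were lower. Of these, AJ011115_at and AJ011116_at lay below the control level on all 6 arrays and U02534_at on 4 of 6, so the brighter Nos3 probe sets did not show the same change. Hsp90ab1, a chaperone of the family that binds that synthase, had a log2 difference of -0.47 ± 0.17 (SE, limma adjusted p = 0.585), with all 4 of its tested probe sets lower. Gucy1b1, a subunit of the nitric oxide receptor, measured 73.3, 122.3 and 78.1 and then 69.0, 73.3 and 74.9, with non-runner B alone high.

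**Figure D3:**
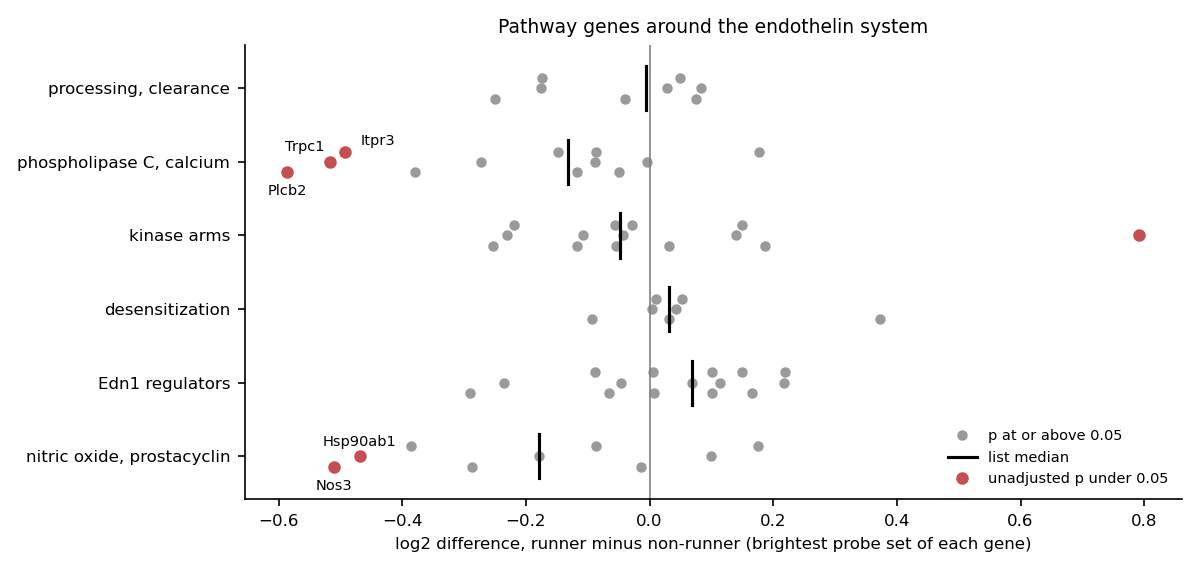
Log2 difference, runner minus non-runner, of the brightest probe set of each tested gene in 6 lists; points are genes, red where limma's unadjusted p is under 0.05, and black bars are list medians. List medians lie between -0.18 and 0.07, and 5 of the 6 red points lie left of 0.

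The cell makeup of the pools was read from marker genes, since the aorta holds endothelium, smooth muscle, adventitia and attached fat and nerve. Summed intensities of 8 endothelial markers were 554.5 to 680.6 in non-runners and 528.2 to 542.5 in runners, lower on every runner array, as D29683_at of Ece1 was. That order rested on Egfl7, which encodes a protein that endothelial cells secrete and was named after its values were seen. Egfl7 measured 86.7, 140.1 and 129.7 without running against 37.2, 34.1 and 14.6 with it. Without this gene the sums overlapped, at 593.9, 414.4 and 523.0 against 505.3, 506.4 and 513.6. Of the 8 endothelial markers, 5 exceeded the control level on at least 1 array, 0 were at 0 on every array, and 5 of the 6 tested were lower. Pecam1, an endothelial adhesion molecule, went the other way, at 133.5 ± 58.3 without running and 171.0 ± 12.0 with it (SD, n = 3), with its lowest value on non-runner B. Kdr and Vwf, below the control level on every array and too dim to be tested, were also higher in runners by their means. These were 12.9 and 19.2 for Kdr and 16.3 and 18.7 for Vwf, and the groups of both overlapped. The summed signal of 11 nerve and Schwann cell markers was also lower on each runner array, at 1146.1 to 1362.8 against 1545.4 to 1709.7. Most of that sum on each array was Pmp22, named after its values were seen. Pmp22 measured 897.2, 1170.0 and 963.1 in non-runners and 814.2, 770.8 and 784.2 in runners. The order of the sum therefore does not speak for the other markers. Of these 11 markers 8 were tested, and 8 were lower, among them S100b, a Schwann cell protein, at 242.1 ± 41.8 and 168.5 ± 41.5. The groups of S100b overlapped. Of the 11, 8 exceeded the control level on at least 1 array. The rest were below it on every array and too dim to be tested. Among them, Mbp was higher on each runner array, at 13.0, 12.7 and 13.9 against 20.7, 30.2 and 21.1. By their means Sox10 was also higher in runners, at 1.6 and 2.4, and Dbh lower, at 22.6 and 13.0. The 5 red blood cell and platelet markers summed to 1663.1 to 2150.4 in non-runners and 2392.5 to 4670.8 in runners. Most of that sum on each array was Hbb, a globin. Hbb measured 888.7, 1310.7 and 959.4 in non-runners and 1472.7, 1445.7 and 2910.5 in runners, with runner C far the highest. Of the 5 markers, 4 were higher and 1 lower, Slc4a1, with means of 95.9 in non-runners and 85.7 in runners. The groups of Slc4a1 and of Alas2 overlapped.

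Sums of the smooth muscle markers overlapped between groups, at 12881 to 15257 in non-runners and 13002 to 14199 in runners, and all 8 exceeded the control level on at least 1 array. Of the 8, 5 were higher and 3 lower. Groups did not overlap for 2 of the 8, beside 14.9% of the chip. At an unadjusted p under 0.05, 1 was higher and 0 lower, and 0 passed limma's adjusted test. The 1 was Itga8, at 311.2, 217.6 and 294.9 in non-runners and 396.4, 411.2 and 408.5 in runners. Acta2, smooth muscle actin, differed by 0.14 ± 0.22 (log2, SE), a sign that turned to -0.01 with arrays centred on their medians, and Myh11, smooth muscle myosin, by -0.14 ± 0.14, with 1 of its 3 probe sets lower. Adipocyte markers also overlapped as a sum, at 3879.4 to 5738.2 and 4689.8 to 5277.7, though Fabp4, a fatty acid carrier of fat cells, was higher on each runner array at 485.2 ± 71.0 and 676.1 ± 68.0 (SD, n = 3). Lpl, lipoprotein lipase, named after its values were seen, was lower on each, at 839.2, 750.4 and 868.0 in non-runners and 608.9, 594.1 and 671.1 in runners. At an unadjusted p under 0.05, 1 adipocyte marker was higher and 1 lower, and 0 passed limma's adjusted test. Sums of fibroblast and macrophage markers overlapped as well. In pooled tissue, fewer cells of a type and less RNA per cell cannot be told apart. The part of these markers in the Ece1 difference was not tested.

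The genes whose levels followed Ece1 most closely over the 6 arrays shared its step between groups. Their choice brings this about, as D29683_at varied little within groups and a high r over the same arrays requires such a step. Against D29683_at, Pearson's r of log2 values was 0.997 for Tango2, 0.983 for Rmdn3, a mitochondrial outer membrane protein, and 0.980 for Gnas, the stimulatory G protein alpha subunit. Tango2 measured 125.2, 103.9 and 101.5 in non-runners and 51.0, 61.3 and 60.1 in runners. Rmdn3 measured 86.9 ± 8.1 and 66.1 ± 6.8 (SD, n = 3). Gnas measured 4503.7, 4623.8 and 4554.4 and then 3332.3, 3763.3 and 3396.7, again with no overlap. Their other probe sets did not all share the step, as rc_AA799663_g_at of Tango2 differed by 0.06 and rc_AI237836_at of Gnas by 0.02 (log2). Over the 6 arrays, 35 of 3136 candidate probe sets had r over 0.9. The second Ece1 probe set, rc_AA956930_s_at, had r = -0.29 with D29683_at.

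Edn1 was followed most closely by Pitpna, a phosphatidylinositol transfer protein (r = 0.967), Pcbp4, an RNA-binding protein (0.953), and Icam1, an adhesion molecule that inflamed endothelium displays (0.951). Icam1 measured 167.5, 140.7 and 109.4 in non-runners and 109.1, 113.1 and 152.9 in runners, highest on non-runner A and runner C like Edn1. Its dimmer probe set, D00913_at, did not share that pattern, being lowest on non-runner A. It measured 34.0, 39.2 and 41.0 in non-runners and 36.9, 37.8 and 42.0 in runners, above the control level on 1 array per group. Over all 6 arrays 16 of 3138 candidates had r over 0.9. With Edn1, the Ece1 probe sets had r = 0.23 for D29683_at and 0.49 for rc_AA956930_s_at. As Edn1 lay below the control level, its array pattern is not established as that of a transcript.

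**Figure D4:**
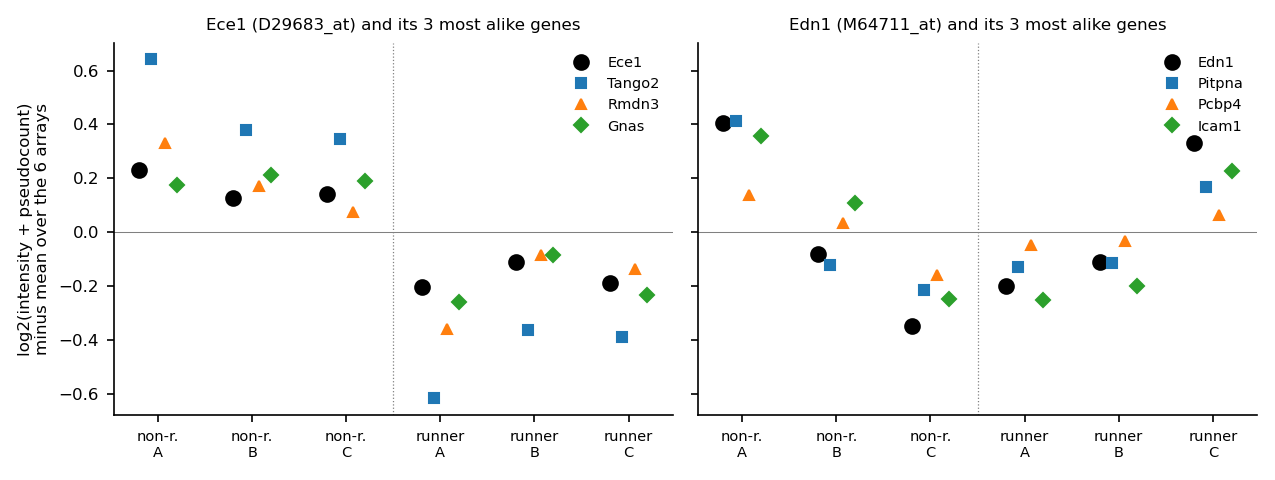
Log2(intensity + pseudocount) minus the mean over the 6 arrays, before quantile normalization, for Ece1 (left) and Edn1 (right), each with the 3 genes most like it; points are single arrays. Ece1 and its 3 genes lie above 0 on the non-runner arrays and below 0 on the runner arrays, while Edn1 and its 3 genes are highest on non-runner A and runner C.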

How the data were processed

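Total RNA of 6 pools of 3 aortae was read on an Affymetrix rat chip. The deposited intensities are linear, 1 per probe set and array; the software was not given in the sources used here. From the values, the authors' scaling left each array's trimmed mean (2% off each end) at 100.0. Symbols came from the platform annotation. The 8799 probe sets held 59 controls, 7006 with 1 symbol, 308 with several and 1426 with none. Gene identifiers of 6985 matched the RefSeq table of GRCr8, which changed 0 symbols.

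Intensities were analysed as log2(intensity + 2.4), the 10th percentile of the positive values, and quantile normalized. This understates changes of dim genes. Controls and the dimmest 40% by mean log2 level were left out, leaving 5244 probe sets of 3173 genes. Groups were compared with limma 3.58.1 (lmFit, eBayes) in R 4.3.3, two-sided, Benjamini-Hochberg adjusted over all tested probe sets, at 0.05. The fit was also run on simulated independent values, with changes larger than those of the tested members. That run does not show the power of the test for the members. Overlap was judged on the deposited intensities. Named were all member probe sets, the 3 genes of each pathway list with the smallest p, the 3 genes most like each tested member with a mean above the control level, and 6 markers; 1 gene so chosen is not reported here. Edn2, Lpl, Egfl7, Pmp22, Mbp, Sox10, Dbh, Kdr, Vwf, Hbb, Slc4a1, Alas2 and Itga8 were named after their values were seen. So were L06096_at of Itpr3, Y09365cds_s_at of Grk6, AF110508_at of Nos3 and D00913_at of Icam1. Members and lists were chosen with earlier results of these data known. The array letters were not treated as a pairing in the main test, as the labels do not name them as one. The labels also give runner arrays A, B and C the further letters D, E and F. Deviations of same-lettered arrays from their group means correlated at -0.09 to -0.04. These values show no shared effect of the letters but do not settle how the pools were formed. Figures used matplotlib 3.10.9.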

Additional observations from a re-analysis of the deposited data

How the results depend on the processing

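The alternatives were other pseudocounts (1 and 16), no further normalization, centring on medians, other dim filters (none, and 60%), other variance models, a replicate block on the array letter, averaging the probe sets of a gene, and omitting each array. The beta-actin 3'/5' ratio as covariate and the endothelial sum without Egfl7 were chosen after seeing the data. D29683_at of Ece1 stayed below 0 in all, at -0.38 to -0.09 with 6 arrays, the smallest size being the mean with the other Ece1 probe set, and -0.37 to -0.31 as arrays were left out; limma's adjusted p was 0.500 to 0.921 throughout. With the replicate block it was -0.34 (limma adjusted p = 0.73). The other Ece1 probe set turned to -0.13 with the covariate and ran from 0.00 to 0.30 as arrays were left out. Edn1 turned to 0.015 without further normalization, and ran from -0.19 to 0.14 as arrays were left out. The difference between the Ece1 probe sets was -0.63 to -0.25 over 17 settings.

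Over the chip, 0 probe sets passed limma in each direction with 6 arrays. The number at an unadjusted p under 0.05 moved with the number tested. It was 298 of 5244 with the covariate, 310 of 3496 with the dimmest 60% left out and 617 of 8740 without a dim filter. Leaving out arrays gave 0 to 4 higher and 0 to 1 lower, with 4 higher without non-runner C and 1 in each direction without non-runner A. Of the listed pathway genes, 0 passed in every alternative. Signs of other named genes turned in 16 of 444 refits, in 8 of 28 genes. With the covariate these were Gucy1b1 (0.0188), Pcsk6 (0.0285), Grk5 (0.204), Pecam1 (-0.0739) and Acta2 (-0.203). With arrays centred on medians they were Grk6 (-0.0048) and Acta2 (-0.0118). As arrays were left out, Grk5 ran from -0.247 to 0.0493, Grk6 from -0.0553 to 0.124, Acta2 from -0.0846 to 0.286, Pitpna from -0.174 to 0.135 and Pcbp4 from -0.0819 to 0.0627. Scaling moved the median of all genes to at most -0.03 in size. Depth does not apply; 17.3% of tested probe sets, Edn1 among them, lay below the control level on all 6 arrays.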
